A study of Mus musculus with 6 samples.

Results

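The 37 genes described here encode the coats, GTPases, cargo receptors and Golgi tethers of vesicle traffic between the endoplasmic reticulum (ER) and the Golgi, and they were chosen by name from the 43280 rows of a gene count table. They comprise 9 subunits of the COPI coat, 2 ARF GTPases, 9 subunits and scaffolds of the COPII coat, 2 SAR1 GTPases with their exchange factor Preb, 3 KDEL receptors, 4 cargo receptors or their cofactors, 5 members of the p24 family and 2 Golgi tethers. All 37 were in the table and all 37 passed the filter on low counts, with normalized means from 332 (Kdelr3) to 6300.3 (Sec16a) and no single count below 244. Bulk RNA-seq was performed on submandibular glands (SMGs) of adult female mice on a C57BL/6 background, 3 wild-type (WT) and 3 Hs3st3a1;3b1 double knockout (DKO). In the DKO, Hs3st3b1 carries a targeted knockout allele and exon 1 of Hs3st3a1 was disrupted with a zinc finger nuclease, a germline change that is not limited to one cell type. Both genes encode heparan sulfate 3-O-sulfotransferases of the Golgi, and the study asked how their loss changed the gland. The age of the mice and whether each library came from a separate animal were not given in the labels used here, so p-values measure the spread between these libraries, which may be partly technical. Libraries are named by group and label number, WT 1, 4 and 5 and DKO 1, 4 and 5, and values are always given in that order.

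COPII-coated vesicles carry newly made protein out of the ER. The GTPase SAR1, loaded by PREB at the ER membrane, recruits an inner layer of SEC23 and SEC24, of which SEC24 binds cargo, and an outer cage of SEC13 and SEC31, at sites organised by SEC16. COPI-coated vesicles, recruited by ARF GTPases, return escaped ER proteins and receptors from the Golgi. KDEL receptors bind escaped chaperones, while LMAN1 with MCFD2, LMAN2, SURF4 and the p24 (TMED) proteins sort cargo in one or both directions. Salivary acinar cells and the granular duct cells of the rodent SMG are professional secretory cells, in which this traffic is heavy.

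The libraries held 23674258 to 29611975 counts. Counts of the targeted genes did not separate the groups: Hs3st3a1 had 15, 11 and 15 counts in WT and 11, 8 and 13 in DKO libraries (log2 fold change -0.22, DESeq2 adjusted p = 0.947), and Hs3st3b1 had 173, 203 and 261 against 255, 120 and 189 (-0.04, adjusted p = 0.976). The counts of these rows thus do not check the labels, and the groups are those the labels state. Library WT 5 held 88122 counts of Bpifa2 and DKO 1 held 3632, against 70 to 105 in the other 4, and Dcpp1 and Smr3a stood apart in WT 5 too (Dcpp1 also in DKO 1). These genes are secretory products abundant in neighbouring salivary glands, so results were also computed without these 2 libraries. Among lists of cell type markers, 2 of 9 acinar genes were called higher in DKO (Aqp5 and Agt), 7 of 8 myoepithelial genes lower, and 2 of 7 fibroblast genes lower. The normalized counts of these lists summed to 415334 to 586893 in WT and 571772 to 636201 in DKO libraries for acinar genes, 10807 to 11639 and 5956 to 7808 for myoepithelial genes, and 11192 to 15957 and 8416 to 12063 for fibroblast genes. The acinar list holds Bpifa2, Dcpp1 and Smr3a too, so its sums in WT 5 (586893) and DKO 1 (571772) include those counts. The next highest WT sum was 553866, in WT 4. In bulk tissue, a changed number of cells of a type and changed RNA per cell cannot be told apart.

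Most of the 37 genes lay slightly higher in DKO than in WT SMGs, and few of these differences passed the test. Copz2, Tmed3 and Tmed9 were called higher at an adjusted p of 0.05, and no member was called lower. Over all 18606 rows tested, 1.02% were called higher and 1.88% lower, and among the 6431 rows with a mean normalized count of at least 300, the depth range of all members, 2.36% were called higher. The log2 fold change was above 0 for 34 members and below 0 for Copg2, Sec23a and Sec24b, against 50.2% of all rows and 57.8% of the deep rows above 0. The median over the 37 members was 0.22, with a range of -0.14 to 0.52, and the median over all rows was 0.00 and over the deep rows 0.04. An unadjusted p under 0.05 was reached by 19 members, all higher in DKO, where 4.92% of all rows and 10.3% of the deep rows did so in that direction. Every DKO library lay above every WT library for 17 members, against 9.85% of all rows and 15.2% of the deep rows. The same 6 libraries stand behind every gene, so the members are not independent observations of the genotype.

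The size of these differences was bounded more firmly than their sign. The 95% Wald interval of the log2 fold change lay within -1 to 1 for all 37 members, so that a 2-fold change, the size the study required of a changed gene, lay outside each interval. The lowest bound was -0.38 (Sec23a) and the highest was 0.86 (Mcfd2), with standard errors of 0.08 to 0.17. The normalized counts of the 37 genes summed to 84479 ± 3137 (SD, n = 3) in WT and 98341 ± 8863 in DKO, 16.4% higher. As a share of all counts, the same genes made up 0.342% ± 0.019 in WT and 0.337% ± 0.019 in DKO, and the groups overlapped. These scales differ because the 10 rows with the most counts took 62.6% to 66.2% of counts in DKO and 57.9% to 61.9% in WT libraries. When libraries were scaled by their total counts, the median of all rows was -0.23 and that of the members -0.01, leaving 15 of 37 above 0 and 34 of 37 above the median of all rows. Directions below are therefore relative to the median row, and they do not show a higher fraction of the gland's RNA.

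**Figure D1:**
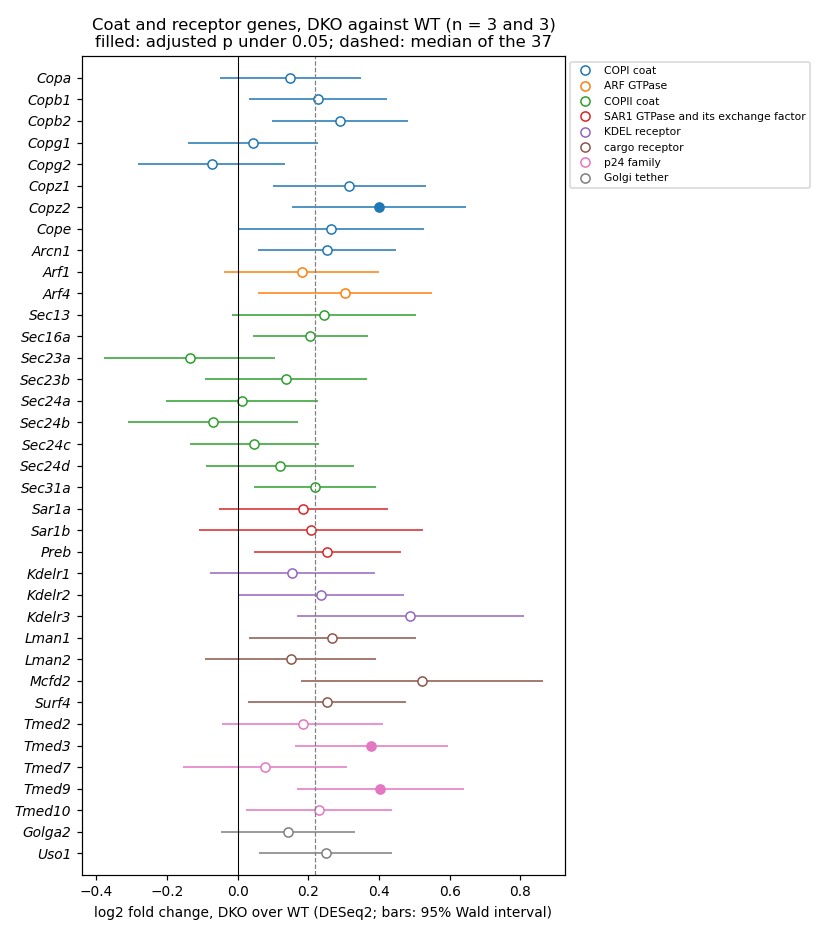
Log2 fold change (DKO over WT, horizontal axis) of each of the 37 genes, in blocks of colour by role, as DESeq2 estimates with 95% Wald intervals from 3 WT and 3 DKO libraries. Filled points are Copz2, Tmed3 and Tmed9, the genes past the threshold, and the dashed line at 0.22 is the median of the 37.

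The members shared a promoter motif that the choice of genes did not use. Their promoters, from 250 bases before to 50 after the RefSeq start (mouse assembly GRCm38.p6, 32 of 37 genes matched), were searched on both strands for the letters ACGTGG, which lie within binding sites of the ER stress factors XBP1 and ATF6 and of the CREB3 family, and for TGACGTGG, the core of the unfolded protein response element, which contains them. ACGTGG was present in 20 of 32 members (62.5%), in 24.6% of 69 other genes of the pathway, in 10.3% of 17492 protein-coding genes and in 14.4% of the 4888 protein-coding genes whose rows had a mean of at least 300. TGACGTGG was present in 6 members (18.8%), in 5.8% of the other pathway genes, in 0.823% of protein-coding genes and in 1.31% of the deep ones. The windows printed here, 5′ to 3′ on the strand of the gene with the motif in capitals, are those of the 3 genes called higher, with ACGTGG, and then of the 6 genes with TGACGTGG or its complement CCACGTCA.
Tmed9, chr13:55593111-55593156, plus strand: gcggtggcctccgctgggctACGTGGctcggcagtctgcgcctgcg
Tmed3, chr9:89705219-89705264, minus strand: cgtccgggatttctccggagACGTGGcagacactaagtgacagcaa
Copz2, chr11:96849736-96849781, plus strand: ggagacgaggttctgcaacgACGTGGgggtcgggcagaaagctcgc
Copb1, chr7:114254683-114254728, minus strand: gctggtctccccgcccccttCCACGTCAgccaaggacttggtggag
Copb2, chr9:98563704-98563749, plus strand: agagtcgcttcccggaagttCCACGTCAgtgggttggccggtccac
Arf1, chr11:59228219-59228264, minus strand: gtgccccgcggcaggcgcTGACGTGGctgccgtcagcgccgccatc
Sec23a, chr12:59011984-59012029, minus strand: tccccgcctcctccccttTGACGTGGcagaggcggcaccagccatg
Sec24d, chr3:123267452-123267497, plus strand: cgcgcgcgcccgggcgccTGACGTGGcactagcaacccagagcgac
Kdelr3, chr15:79516358-79516403, plus strand: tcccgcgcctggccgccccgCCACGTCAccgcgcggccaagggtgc

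The 27 matches to ACGTGG in the 20 genes lay between 226 bases upstream and 40 bases downstream of the start, with a median of 30 bases upstream. Members with ACGTGG had a median log2 fold change of 0.24 (n = 20) and included all 3 called genes, and the 12 members without it had a median of 0.15 with none called. Values above 0 were found in 18 of the 20 and in 11 of the 12, and the difference was not tested. The longer TGACGTGG did not mark the members that differed more: its 6 genes had a median of 0.20, the other 26 had 0.21, and Sec23a, which holds it, was below 0. CCACG, the 5 bases at the end of the ER stress response element, was present in 26 members (81.2%), in 65.2% of the other pathway genes, in 40.4% of protein-coding genes and in 54.6% of the deep ones. CCACG lies within CCACGT, the complement of ACGTGG, so every gene with ACGTGG holds it and the shares are not separate results. The full element, in which CCAAT precedes CCACG by 9 bases of any kind, matched in 0 of 32 (0.166% of protein-coding genes). The ATF4-type element TTGCATCA also matched in 0 of 32, against 1.01% of protein-coding genes. A match is a string of letters in this window and no binding was measured.

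Of the 9 COPI subunits, 1 was called higher, 8 had a log2 fold change above 0 and the median was 0.25 (0.01 with total counts as size factors, 5 of 9 above 0). Copz2 (chr11:96849870-96861203), which encodes a zeta subunit, had 1291, 1494 and 1432 normalized counts in the WT libraries and 1584, 2106 and 1878 in DKO. The lowest DKO library exceeded the highest WT library, the means were 1406 ± 104 and 1856 ± 262 (SD, n = 3), for a log2 fold change of 0.40 (SE 0.13, adjusted p = 0.0462 by DESeq2). Its paralog Copz1 had 1128, 1036 and 1047 against 1229, 1473 and 1297, also without overlap, but a log2 fold change of 0.32 (SE 0.11) left it at an adjusted p of 0.0868. Copb2, the beta-prime subunit that binds the dilysine signal of returning cargo, had 3533, 3689 and 3448 against 4117, 4809 and 4113 (0.29, SE 0.10, adjusted p = 0.0718). The groups were again separate, and the threshold was not passed.

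Copb1, the beta subunit, had 2731, 2813 and 2770.3 normalized counts against 3014, 3610.2 and 3112 (log2 fold change 0.23). Arcn1, the delta subunit, had 4657, 5006 and 4369 against 5140.4, 6023 and 5554 (0.25). In both genes the groups did not overlap, and in both the adjusted p was above 0.1 (0.237 and 0.156). Cope, the epsilon subunit, overlapped between groups, with 1427, 1371 and 1209 against 1395, 1898 and 1518 (0.26, adjusted p = 0.362), as did Copa, the alpha subunit (0.15, adjusted p = 0.596). The gamma subunits stood apart from the rest of the coat in size of difference: Copg1 had 2863, 2846 and 2691 against 2805, 3123 and 2726 (0.04, 95% interval -0.14 to 0.23), and Copg2 had 1116, 1159 and 1150.0 against 989, 1164 and 1105 (-0.07, -0.28 to 0.13). The difference between these and the other subunits was not tested. Copg2 shares 912 exon bases with Mest on the opposite strand in an unstranded library, and Mest averaged 24 counts. Copa shares 195 exon bases (4.19% of its length) with Ncstn on the opposite strand, which averaged 1031 counts.

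The ARF GTPases that recruit COPI had a median of 0.24, with none called, and both had DKO 4 as their highest library. Arf4 had 2654, 2593 and 2367 normalized counts in WT libraries and 2913, 3715 and 2771 in DKO, without overlap (0.30, SE 0.13, adjusted p = 0.192). Arf1 had 3116, 3227 and 3074 against 3199, 4108 and 3367 (0.18, adjusted p = 0.528).

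**Figure D2:**
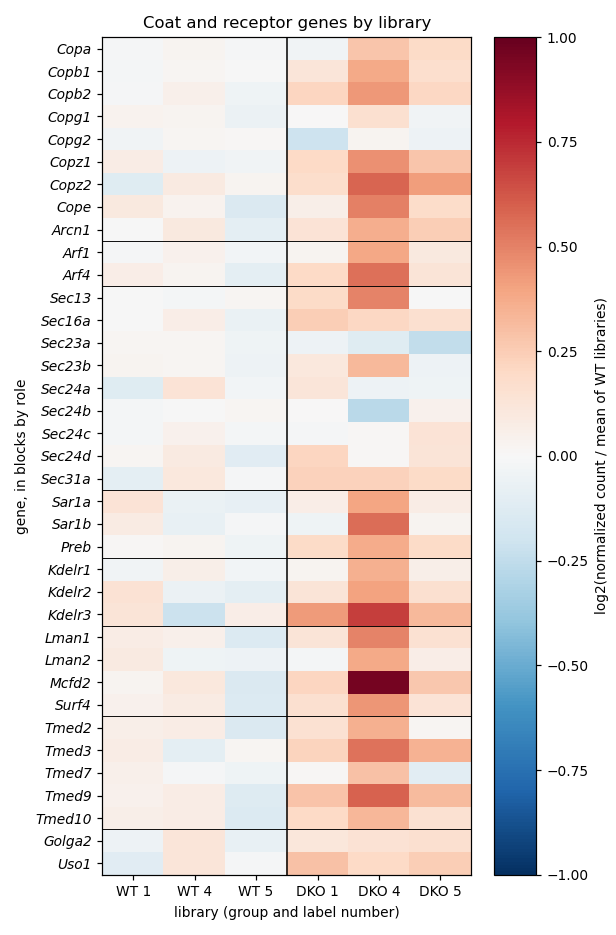
Log2 of each library's normalized count over the mean of the 3 WT libraries (colour, from -1 to 1) for the 37 genes, with lines between roles and between WT and DKO. The median over the genes was 0.13 in DKO 1, 0.37 in DKO 4 and 0.15 in DKO 5, and DKO 4 is the darkest column in 29 rows.

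The COPII coat showed the smallest differences among the roles with more than 3 genes, with a median of 0.12 over 9 genes and none called (1 of 9 above 0 with total counts as size factors). Sec31a, of the outer cage, had 4834, 5553 and 5112 normalized counts in WT libraries and 6062, 6077 and 5892 in DKO (0.22, SE 0.09, adjusted p = 0.175), and Sec16a, the ER exit scaffold, had 5829.6, 6132 and 5593 against 6940.2, 6754 and 6552 (0.21, SE 0.08, adjusted p = 0.168). In neither gene did the groups overlap, and both values were just below 0 with total counts as size factors (-0.013 and -0.026). Sec13, whose protein also serves in the nuclear pore, had 1203, 1193 and 1223 against 1380.5, 1702 and 1204, so that DKO 5 lay among the WT libraries (0.24, adjusted p = 0.418). In the inner coat, Sec23b, the more abundant SEC23 gene, had a log2 fold change of 0.14 (adjusted p = 0.718), and Sec23a was the only member with every DKO library below every WT library, at 514, 515 and 493 against 489, 467 and 427 (-0.14, SE 0.12, adjusted p = 0.746). Over all rows 10.5% had no overlap in that direction. The difference between the inner and outer coat was not tested.

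The 4 SEC24 cargo adaptors had log2 fold changes of 0.01 (Sec24a), -0.07 (Sec24b), 0.05 (Sec24c) and 0.12 (Sec24d), with adjusted p of 0.984, 0.908, 0.92 and 0.735. Sec24b had 736, 746 and 759.5 normalized counts in WT libraries and 748, 619 and 771 in DKO, and DKO 4, the highest library for most members, was its lowest. The widest 95% interval bound among the 4 was -0.31 (Sec24b) on the low side and 0.33 (Sec24d) on the high side. Sar1a and Sar1b, the GTPases that start COPII assembly, had 0.19 and 0.21 (adjusted p = 0.569 and 0.67). Sar1b rested on DKO 4, with 797, 718 and 748 against 731, 1111 and 770.2, and its log2 fold change was -0.01 without that library. Preb, the SAR1 exchange factor, had 919, 931 and 888 against 1042, 1181 and 1040.0 (0.25, SE 0.11, adjusted p = 0.203), with no overlap. Of the exon length of Preb, 25.0% overlaps Abhd1 on the opposite strand, which averaged 112 counts.

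The KDEL receptors retrieve ER chaperones, and none of the 3 was called. Kdelr3 had 302, 239 and 289 normalized counts in WT libraries and 371, 446 and 347 in DKO, without overlap (277 ± 33.4 and 388 ± 51.8, SD, n = 3). Its log2 fold change of 0.49 (SE 0.16) was the second largest of the 37, with an adjusted p of 0.0669. Kdelr2 had 1444, 1253 and 1217 against 1425, 1728 and 1457 (0.24, adjusted p = 0.36), and Kdelr1 had 1089, 1158 and 1094 against 1132, 1424 and 1162 (0.15, adjusted p = 0.666). The WT and DKO values overlapped in both.

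Among the cargo receptors, Mcfd2 had the largest log2 fold change of all 37 members and did not pass the threshold. MCFD2 is the cofactor with which LMAN1 carries coagulation factors out of the ER. It had 2897, 3069.6 and 2581 normalized counts in WT libraries and 3299.8, 5539.7 and 3437 in DKO (0.52, SE 0.17, adjusted p = 0.0663). The groups did not overlap, but DKO 4 was far above the other 2 DKO libraries, and without it the value was 0.24 (adjusted p = 0.285). Its partner Lman1 had 5104, 5020.1 and 4405 against 5295, 6822 and 5381 (0.27, SE 0.12, adjusted p = 0.259), again separate and highest in DKO 4. Surf4, a receptor for many soluble secreted proteins, had 3549, 3636 and 3133 against 3837, 4670.1 and 3786 (0.25, adjusted p = 0.26). Lman2, a lectin of the early secretory pathway, overlapped, with 1936, 1765 and 1757 against 1790.3, 2366 and 1900.1 (0.15, adjusted p = 0.7).

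The p24 family held 2 of the 3 called genes. Tmed3 (chr9:89699206-89705068) had 2891, 2563 and 2785 normalized counts in WT libraries and 3199, 4007 and 3503 in DKO, so the groups did not overlap and the means were 2746 ± 167 and 3569.8 ± 408 (SD, n = 3). That is a log2 fold change of 0.38 (SE 0.11, adjusted p = 0.0259 by DESeq2). Tmed9 (chr13:55573732-55597697) had 1207, 1232 and 1069 against 1424, 1759 and 1455, without overlap, for means of 1169 ± 87.4 and 1546 ± 185 and a log2 fold change of 0.40 (SE 0.12, adjusted p = 0.0317). The p24 proteins form hetero-oligomers that enter both kinds of vesicle, and the other 3 were not called. Tmed10 had 1858, 1875 and 1623 against 2045, 2252 and 1983, separate at 0.23 (adjusted p = 0.269). Tmed2 had 2603, 2635 and 2265 against 2786, 3203 and 2532 (0.18, adjusted p = 0.545), and Tmed7 had 2131, 2041 and 1988 against 2072, 2511 and 1912 (0.08, adjusted p = 0.888), both with overlap. Tmed7 shares 838 exon bases with Ticam2 on the same strand.

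The calls of Copz2, Tmed3 and Tmed9 did not hold in each fit. By edgeR's quasi-likelihood test their adjusted p were 0.193, 0.193 and 0.171, and by limma-voom 0.233, 0.215 and 0.214, and both tools called 0 members. Those tools called 0.0537% and 0.0376% of all rows, in either direction. With total counts as size factors, where DESeq2 called 7.9% of all rows, none of the 3 was called and Copg2 was called lower (-0.31, adjusted p = 0.0454). DESeq2 called 0 members higher without WT 1, without WT 5, without DKO 4 or without DKO 5, 2 without WT 4 (Tmed9 and Uso1, with 1.33% of all rows called higher) and 6 without DKO 1 (Copb2, Copz1, Copz2, Mcfd2, Tmed3 and Tmed9, with 1.68%). Without WT 5 and DKO 1 together, the libraries with counts of other glands, it called 0 (0.459% of all rows), and 33 of 37 values were above 0 with a median of 0.23. With the replicate number as a block, Mcfd2 alone was called, with 0.72% of all rows called higher.

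Of the Golgi tethers, Uso1 (p115), which ties COPII vesicles to the Golgi, had 2572, 3026 and 2758 normalized counts in WT libraries and 3417, 3202 and 3309 in DKO, without overlap (0.25, SE 0.10, adjusted p = 0.144). Golga2 (GM130), its partner on the cis-Golgi, had 1689, 1902 and 1663 against 1898, 1935 and 1961 and overlapped by a few counts (0.14, adjusted p = 0.598). For these genes DKO 4 was not the highest library.

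Divided by exon length, WT levels ran from 828 to 1949.7 normalized counts per kb over the COPI subunits. Over SEC23, SEC24, SEC13 and SEC31A of COPII they ran from 701 to 1222. In WT the COPI coat had 1244 normalized counts per kb for alpha, 828 for beta, 1166 for beta-prime, 893 for gamma (both paralogs summed), 1149 for delta, 1028 for epsilon and 1949.7 for zeta. These subunits are present in equal numbers in the assembled coat, and the level of zeta transcripts was the highest in all 6 libraries. The COPII coat had 701 for SEC23, 1138 for SEC24, 892 for SEC13 and 1222 for SEC31A. In DKO the order of the means within COPII was the same, with 747, 1177, 1056 and 1421, but in DKO 4 SEC13 (1258) lay above SEC24 (1108). In COPI, beta was the lowest subunit in each WT library (816 to 841, with gamma at 871 to 907) and gamma the lowest in each DKO library (855 to 969, with beta at 901 to 1079). Beta-prime and alpha also traded places in the means, at 1425 ± 131 and 1379 ± 151 in DKO, a difference smaller than the spread between libraries. Single genes ranged in WT from 123 (Sec23a) to 2040.1 (Tmed3) normalized counts per kb. The length of a gene here is its union of coding-transcript exons, and transcripts with a shorter 3′ end would have a higher level than given.

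**Figure D3:**
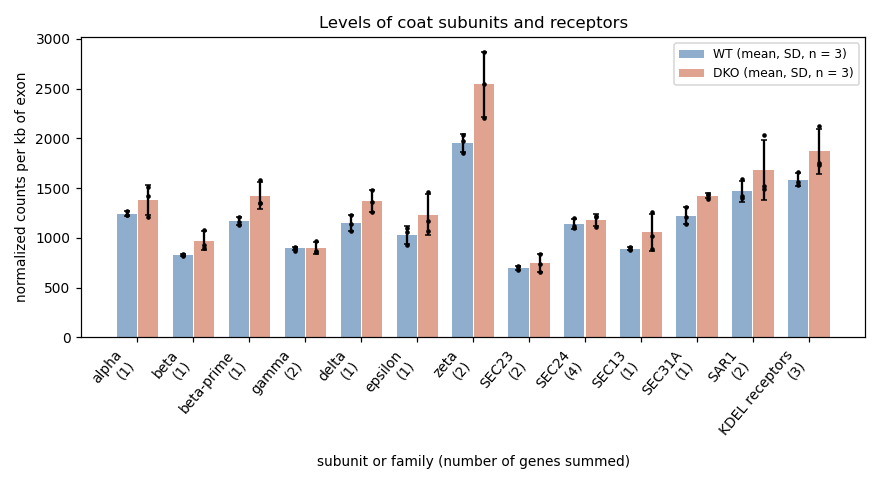
Normalized counts per kb of exon (vertical axis) for coat subunits and receptor families, paralogs summed, with WT and DKO means (bars), SD (error bars, n = 3) and single libraries (points). Zeta is the highest subunit in both groups, at 1949.7 and 2542, and SEC23 the lowest, at 701 and 747.

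Within families of paralogs, the shares of the summed level per kb differed little between genotypes. Copg1 made up 67.7% ± 1.0 (SD, n = 3) of the gamma subunits in WT and 69.4% ± 1.5 in DKO, and Copz2 made up 77.5% ± 2.1 and 78.5% ± 1.1 of the zeta subunits. Both ranges overlapped between groups. Sar1a held 57.2% of the SAR1 transcripts in both genotypes. Of the SEC24 family in WT, Sec24c held 33.5%, Sec24d 31.1%, Sec24a 22.6% and Sec24b 12.8%, and in DKO 33.5%, 32.7%, 22.1% and 11.8%.

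Arf1 was 56.2% ± 1.2 of the summed Arf1 and Arf4 level in WT and 54.1% in DKO, with overlap. Shares did not overlap between the groups for Sec23a and Kdelr3, the least abundant member of each family, and for Copb1, set against the unrelated beta-prime gene Copb2. Copb1 was 41.3%, 41.0% and 42.3% of their sum in WT and 40.0%, 40.6% and 40.8% in DKO. Sec23a was 17.5%, 17.6% and 17.7% of the SEC23 level in WT and 16.0%, 13.6% and 15.7% in DKO, with Sec23b making up the rest. Kdelr3 was 12.9%, 10.9% and 13.4% of the KDEL receptors in WT and 15.2%, 14.9% and 14.1% in DKO. The differences are a few percent of the family. With 3 libraries against 3, a two-sided exact permutation test cannot give a p below 0.1, and no p is given for a share.

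**Figure D4:**
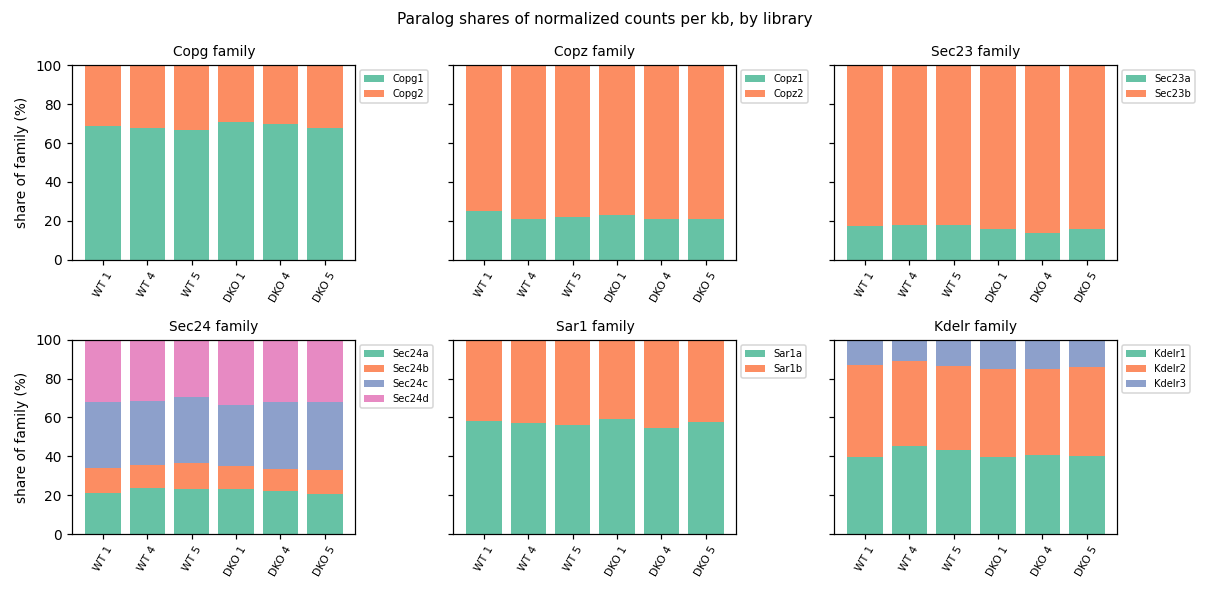
Share of each paralog (percent of the family's normalized counts per kb, vertical axis) in each of the 6 libraries, for 6 families. The Sec23a block is 17.5% to 17.7% in WT and 13.6% to 16.0% in DKO, and the Kdelr3 block 10.9% to 13.4% and 14.1% to 15.2%, while the groups overlap in each of the other 4 families shown.

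Library DKO 4 carried much of the shift. It was the highest of the 6 libraries for 29 of 37 members, including all 9 COPI subunits, all KDEL and cargo receptors and all p24 proteins, but only 3 of 9 COPII genes. Among all rows tested, DKO 4 was highest in 4660 of 18606, and in 2372 of the 6431 deep rows. The median over the members of the log2 ratio to the WT mean was 0.02, 0.04 and -0.04 in WT and 0.13, 0.37 and 0.15 in DKO libraries, so all DKO libraries lay above all WT libraries. Without DKO 4 the median fold change of the members was 0.14 on the log2 scale and 32 of 37 were above 0.

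Shorter members tended to be higher in DKO 4. The log2 ratio of DKO 4 to the mean of DKO 1 and DKO 5 had a Pearson's r of -0.59 and a Spearman's rho of -0.60 with log2 exon length across the 37 genes, which share libraries and are not independent. Within length classes the relation was weaker, with a Spearman's rho of 0.08 for the 18 members under 3000 bases and -0.26 for the 19 longer ones. Across 10499 rows with a mean of at least 50 and a coding gene model, Pearson's r was -0.29 and Spearman's rho -0.38 over all lengths. Within length classes of those rows, Spearman's rho was -0.25 under 3000 bases and -0.24 at or above it. The shorter members had a median ratio of 0.31 and a median DKO over WT log2 fold change of 0.24, and the longer members had 0.15 and 0.15. The corresponding medians over those 10499 rows were 0.15 and 0.10 under 3000 bases and -0.03 and -0.02 at or above it. The members' medians were higher in both classes, but these rows had means from 50 and the members from 332, so depth was not matched. Copz2, Tmed3 and Tmed9 are all under 3000 bases. The part of transcript length or of RNA quality in the members' values was not tested further.

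**Figure D5:**
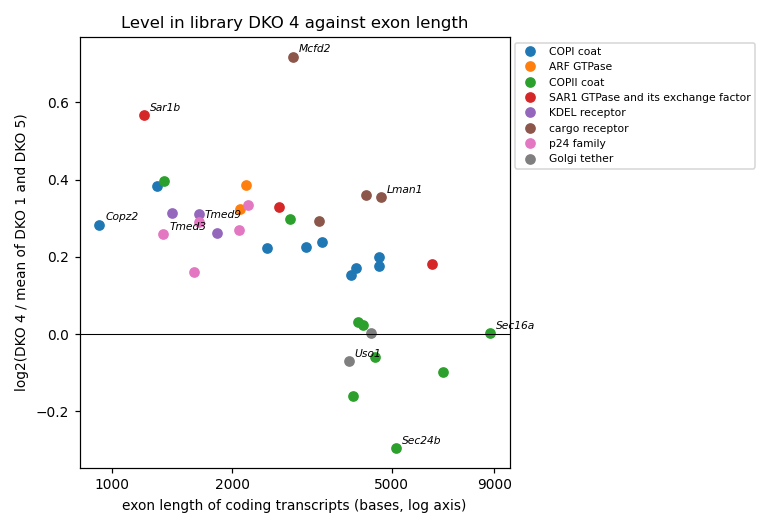
Log2 ratio of DKO 4 to the mean of DKO 1 and DKO 5 (vertical axis) against exon length in bases (log horizontal axis) for the 37 genes, coloured by role. Spearman's rho was -0.60, and the long COPII genes Sec24b and Sec16a lie low while Mcfd2 and Sar1b lie highest.

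Of 76 other genes of ER to Golgi transport that were tested, 2 were called higher, near the 2.36% of deep rows, 0 were called lower, and 64 had a log2 fold change above 0, with a median of 0.14 (21 of 76 above 0 with total counts as size factors). An unadjusted p under 0.05 was reached by 16 of them in the higher direction. Ergic1, of the ER to Golgi intermediate compartment, had 3396, 3521 and 3203 normalized counts in WT libraries and 3989, 4798 and 4262 in DKO (0.37, SE 0.10, DESeq2 adjusted p = 0.0156). Gorasp2 (GRASP55), a Golgi stacking protein, had 1719.9, 1951 and 1824 against 2178, 2734 and 2430.4 (0.42, SE 0.11, adjusted p = 0.0133). Neither was called by edgeR or limma-voom. By group, the medians were 0.18 for 11 ER exit and COPII regulators, 0.22 for 8 COPI regulators, 0.15 for 16 SNAREs and fusion factors, 0.13 for 32 tethers and RABs, and 0.06 for 9 other cargo receptors and p24 proteins, of which 5 were above 0. Without DKO 4 the last of these medians was -0.15, with 2 of 9 above 0. The difference between these genes and the 37 was not tested.

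Lists of CREB3 family factors, of ER stress genes and of ATF4 targets were read in the same libraries. Of 4 CREB3 family genes tested, 2 were called higher: Creb3l1 had 1753, 2292 and 2294 normalized counts in WT libraries and 2968, 3306 and 3186 in DKO (0.58, adjusted p = 5.03e-04), and Creb3l4 had 399.8, 292 and 361 against 483, 614 and 558 (0.65, adjusted p = 0.00427). In both, the groups did not overlap. Of 20 ER chaperones and unfolded protein response genes 1, Sec61a1, was called higher (0.39, adjusted p = 0.0316), with a median of 0.16 over the list, and 18 of the 20 were highest in DKO 4. Of 12 ATF4 targets, 7 were called higher with a median of 1.60. Plasma cells are also rich in secretory machinery, and of 11 of their markers tested, Derl3 was called higher (0.48, adjusted p = 0.00414) and Ighm lower (-4.18, adjusted p = 4.2e-04), while 8 had a log2 fold change below 0. The list summed to 14559 to 20786 normalized counts in WT libraries and 12234 to 17771 in DKO. Its most abundant gene was Xbp1, which other secretory cells also use, with 5714 to 7670 counts. The immunoglobulin genes Igha and Igkc had 907 to 5746 and 396 to 3736 counts, and Mzb1 and Tnfrsf17 had 5 to 41 and 0 to 5. The part of these factors, of plasma cells, and of the acinar, myoepithelial and fibroblast markers given above in the members' values was not tested.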

How the data were processed

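The authors deposited a table of raw counts per gene for the 6 libraries, which was used here, and a filtered version of it. A table of normalized CPM was not used. The labels state unstranded Nextera XT libraries on a HiSeq2500, and the submitters' processing notes name STAR 2.5.2a, DESeq2, edgeR, limma and the builds GRCm38, mm10 and GRCh38 without their roles. The counter and annotation were not given in the sources used here.

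WT and DKO were compared on the deposited counts with DESeq2 1.42.0 (R 4.3.3, Wald test, Benjamini-Hochberg adjustment), the tool the study's methods name, in the 18606 rows with at least 10 summed counts. An adjusted p under 0.05 was a call, and 2556 rows got no adjusted p. Normalized counts are counts divided by the DESeq2 size factors. Every pair of libraries of a group differed beyond sampling noise (chi-square per degree of freedom 16.8 to 43.4). Alternatives used edgeR 4.0.16, limma 3.58.1, other scalings and filters, and left out libraries.

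The 37 genes and all lists were chosen with earlier results of these data known. All 37 are named, and other pathway genes were named where called. Exon lengths and gene coordinates came from GENCODE M21 (GRCm38) and promoters from RefSeq. Total counts of 23674258 to 29611975 gave the members at least 244 counts each. The values of 1 list of duct markers are not reported here.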

Additional observations from a re-analysis of the deposited data

How the results depend on the processing

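Counts of calls depended on the setting, and with total counts as size factors so did the sign of many fold changes. The count of members called higher was 3 with TMM size factors, without the count filter, under a filter of 10 counts in 3 libraries, on the authors' filtered counts and with Cook's filter off. It was 2 without independent filtering (Copz2 at an adjusted p of 0.0533), 0 by edgeR, 0 by limma-voom, 0 with total counts as size factors, 0 without WT 5 and DKO 1 together, an alternative chosen after seeing the data, and 0 to 6 over the fits that left out 1 library. Members called lower numbered 0 in each of these fits, except 1 with total counts (Copg2, -0.31). The other pathway genes called, 2, numbered 0 by edgeR and limma-voom, 0 without WT 5 and DKO 1 together and 0 to 5 with 1 library left out (5 without WT 4). The median log2 fold change of the members was 0.14 to 0.26 with 1 library left out and -0.013 with total counts, where the median of all rows was -0.23. The labels share replicate numbers between the groups, but same-numbered libraries did not deviate together (r = -0.13, -0.02 and -0.26 over 11489 genes) and each library correlated best with another number. In the fit with the replicate number as a block, 1 member (Mcfd2) and 1 other pathway gene were called. With total counts, values not called changed sign for Copa (-0.093), Copb1 (-0.012), Copg1 (-0.19), Arf1 (-0.061), Sec16a (-0.026), Sec23b (-0.10), Sec24a (-0.21), Sec24c (-0.19), Sec24d (-0.11), Sec31a (-0.013), Sar1a (-0.060), Sar1b (-0.043), Kdelr1 (-0.086), Kdelr2 (-0.0082), Lman2 (-0.096), Tmed2 (-0.054), Tmed7 (-0.16), Tmed10 (-0.0071) and Golga2 (-0.091). That scaling divides by totals in which a few rows hold most counts. With 1 library left out, sign changes gave ranges of -0.018 to 0.084 for Copg1, -0.046 to 0.087 for Sec24a, -0.13 to 0.022 for Sec24b, -0.0084 to 0.32 for Sar1b and -0.043 to 0.16 for Tmed7, and Sec24a was -0.060 without WT 5 and DKO 1. The cause of the other changes was not tested. The lowest count of a member was 244, and the part of depth in the calls was not tested.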
